A study of Mus musculus with 10 samples.

Results

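Mast cells are blood-derived immune cells that settle in the skin before birth, where they store proteases, heparin and histamine in granules. Their survival rests on the receptor Kit, and they empty their granules when IgE bound to the high-affinity IgE receptor is cross-linked or when Mrgprb2 is engaged by small basic molecules. Connective-tissue mast cells of the mouse are told from mucosal ones by the proteases Cma1 (mast cell protease 5), Mcpt4 (a chymase), Tpsb2 (a tryptase) and Cpa3 (carboxypeptidase A3), and these proteases accumulate as the granules ripen. In single-cell RNA sequencing of embryonic mouse back skin, 1627 of 55482 kept cells were taken as mast cells because these 4 genes together reached 20 unique molecular identifiers (UMIs), at least 3 of the 4 were detected, and Krt5 and Krt14, the keratins of basal epidermis, stayed under 10 UMIs together. Kept cells had more than 1000 and fewer than 6000 detected genes and under 10% of UMIs from mitochondrial genes.

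The cells came from 10 libraries of total back skin with 3 genotypes. Both E15.5 and E16.5 had 2 libraries labelled control and 2 from MOFfl/fl/K14Cre embryos (MOF cKO), whereas E17.5 had a single control library and a single one from QPCfl/fl/K14Cre embryos (QPC cKO). MOF is Kat8, a histone acetyltransferase acting on lysine 16 of histone H4, and QPC is Uqcrq, a subunit of respiratory complex III. The Cre driver, Krt14-Cre, is active in epithelial cells, so the mast cells are neighbours of the mutated epidermis and the deletion was not aimed at them. Controls were littermates on a mixed C57Bl/6J and CD-1 background, embryos of both sexes were used, and the labels do not say how many embryos entered a library. The deletion in the embryo of MOF cKO replicate 6 was described as mosaic in the epithelium. The E15.5 libraries were made with 10x 3' chemistry v3.1, the E16.5 libraries with v2 and the E17.5 libraries with v3, so stage cannot be told apart from chemistry.

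Several properties of the libraries touch the results. Total UMIs ranged from 13609345 to 203392303 per library, and the E16.5 libraries were the 4 shallowest. The number of mast cells ran from 27 in an E16.5 MOF cKO library to 356 in an E15.5 one, and their median UMI count from 4798 to 20634. The 2 E17.5 libraries shared 1702 cell barcodes, 20.7% of the smaller one, whereas no other pair of libraries shared more than 0.75%. Of the E17.5 mast cells, 2 of 122 in control and 2 of 50 in QPC cKO carried such a barcode, and none was a mast cell in both. The transcript of the inactive X chromosome, Xist, was at 764 and 752 CPM (counts scaled to 1000000 UMIs of the mast cells of a library) in the mast cells of the E15.5 controls and at 0 in both E17.5 libraries and in E16.5 control replicate 2, where the Y-linked Ddx3y was detected. The sex of the embryos thus moved with stage between the E15.5 and E17.5 controls, while the E16.5 controls differed from each other in Xist. The targeted gene Kat8 was sparse in mast cells, at 10.2 and 13.9 CPM in the E15.5 controls and 5.55 and 7.40 CPM in MOF cKO (log2 fold change -0.96 ± 0.26, edgeR adjusted p = 0.174). In all other kept cells it was at 11.1 and 11.6 against 7.75 and 6.94 CPM at E15.5 and at 12.6 and 10.4 against 3.26 and 5.33 CPM at E16.5. Uqcrq was at 133 CPM in the E17.5 control mast cells and 139.9 CPM in QPC cKO mast cells, and at 99.9 against 118 CPM in the other kept cells.

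The chosen cells carried mast cell genes that the rule did not use. Kit was detected in 76.4 to 100% of them per library, Hdc, the histidine decarboxylase that makes histamine, in 100%, Gata2, a transcription factor of the lineage, in 89.1 to 100%, and Srgn, the core protein of granule heparin, in 100%. The alpha chain of the IgE receptor, Fcer1a, was the exception, with UMIs in 0 to 5.74% of the cells, while the beta chain Ms4a2 was detected in 29.6 to 84.6%. In collagen-rich cells outside the mast cells, which should lack these genes, Kit had UMIs in 1.01 to 4.95% of cells, Gata2 in 0.475 to 2.59% and Cma1 in 8.65 to 43.3%, and such shares were read as background. The rule cut through an almost empty range. Per library, 0 to 13 kept cells held 10 to 19 UMIs of the 4 genes and 0 to 4 held 20 to 39, while the median mast cell held 259 to 1666. Genes that mark basophils, the closest relatives of mast cells, were present in part: Cyp11a1 and Cd200r3, which mast cells also express, were at 642 and 583 and at 76.6 and 80.1 CPM in the E15.5 controls, Mcpt8 was at 18.9 and 20.3 CPM, and Ms4a3 had no UMI in 9 of the 10 libraries. Mcpt8 was detected in 8.89% to 25.45% of the mast cells per library, the most in E16.5 control replicate 2. With Prss34, given below for E17.5, the 5 basophil markers summed to 648 to 1369 CPM per library.

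The starts of the protease genes Cma1, Mcpt4 and Cpa3, which the rule uses, and of the receptor gene Mrgprb2 are shown. Tpsb2, the remaining protease of the rule, was not looked up. The 30-base windows below lie upstream of the gene start on GRCm38.p6 (RefSeq promoter windows of 300 bases), are written 5' to 3' on the minus strand, and carry in capitals GATAA or its reverse complement TTATC, the core of the letters bound by GATA factors such as Gata2. These letters occur in 25.4% of 32851 such windows, so a match describes the sequence and is not a bound site. The motif and the genes were chosen after their values were known. All 7 genes looked up had a window, those of Slc18a2 and Ms4a2 also held a match, and that of Hdc held none.
Cma1, chr14:55944852-55944881: tcactgcaaagaTTATCctctacccaagat
Mcpt4, chr14:56062395-56062424: atgagaatttctGATAAggaaagtagagct
Cpa3, chr3:20242209-20242238: gctgttcgtcgaGATAAaagctgaggtata
Mrgprb2, chr7:48558117-48558146: tcaagcatcagtTTATCagcagtctatatg

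Mast cells made up 2.25% to 4.0% of kept cells in every library but one. At E15.5 they were 4.0% and 3.32% of the kept cells of the controls and 2.74% and 3.34% of those of MOF cKO, so that the means differed by -0.621 percentage points (exact two-sided permutation test, p = 0.667, smallest possible 0.333). At E16.5 they were 3.95% and 2.25% of control libraries and 3.77% and 3.96% of MOF cKO libraries, and the means differed by 0.769 percentage points (exact permutation p = 0.667). The groups overlapped at both stages, and over both stages together the difference was 0.0738 percentage points (exact permutation over 36 arrangements, p = 0.833, smallest possible 0.0556). A change of this share in MOF cKO was not detectable with 2 libraries per group. Set against kept cells without the 2 keratins, the E15.5 controls held 5.83% and 4.87% mast cells and MOF cKO 3.06% and 3.95%, so that the groups no longer overlapped (difference -1.84 percentage points, exact permutation p = 0.333, the smallest possible). With mast cells chosen by at least 3 of 6 other mast cell genes the groups did not overlap at E15.5 (-0.525 percentage points) or at E16.5 (1.45 percentage points), nor did they with mitochondrial UMIs under 5% (-1.07) or without shared barcodes (-0.632) at E15.5 and with cells thinned to 5000 UMIs at E16.5 (1.11), each at that smallest p.

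At E17.5 the QPC cKO library stood below all others. It held 50 mast cells among 6118 kept cells, or 0.817% (95% Wilson interval 0.62% to 1.08%), against 122 of 5353 in the control, or 2.28% (1.91% to 2.71%). The control share was 2.79 times the QPC cKO share, with a 95% interval of 2.01 to 3.87 that covers counting error only, as each genotype is 1 library and no test between genotypes was made. The ratio of QPC cKO to control was 0.359 and lay between 0.337 and 0.388 when the rule asked for 40 or 10 UMIs or for 3 of 6 mast cell genes that the rule did not use, and after shared barcodes were left out. It was 0.280 with mitochondrial UMIs under 5%, 0.260 with cells thinned to 5000 UMIs and 0.189 among kept cells without the 2 keratins. Without the limits on genes and mitochondrial UMIs it was 0.519, as 97 QPC cKO barcodes and 155 control barcodes then met the rule. Of these, 28 and 14 were shared with another library. Thinning also lowered the keratin counts, and 148 control and 44 QPC cKO cells then met the rule. At full depth the keratin limit had left out 30 control and 3 QPC cKO cells that met the protease part. The ratio of 0.260 thus holds a looser keratin limit as well as an equal depth.

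**Figure D1:**
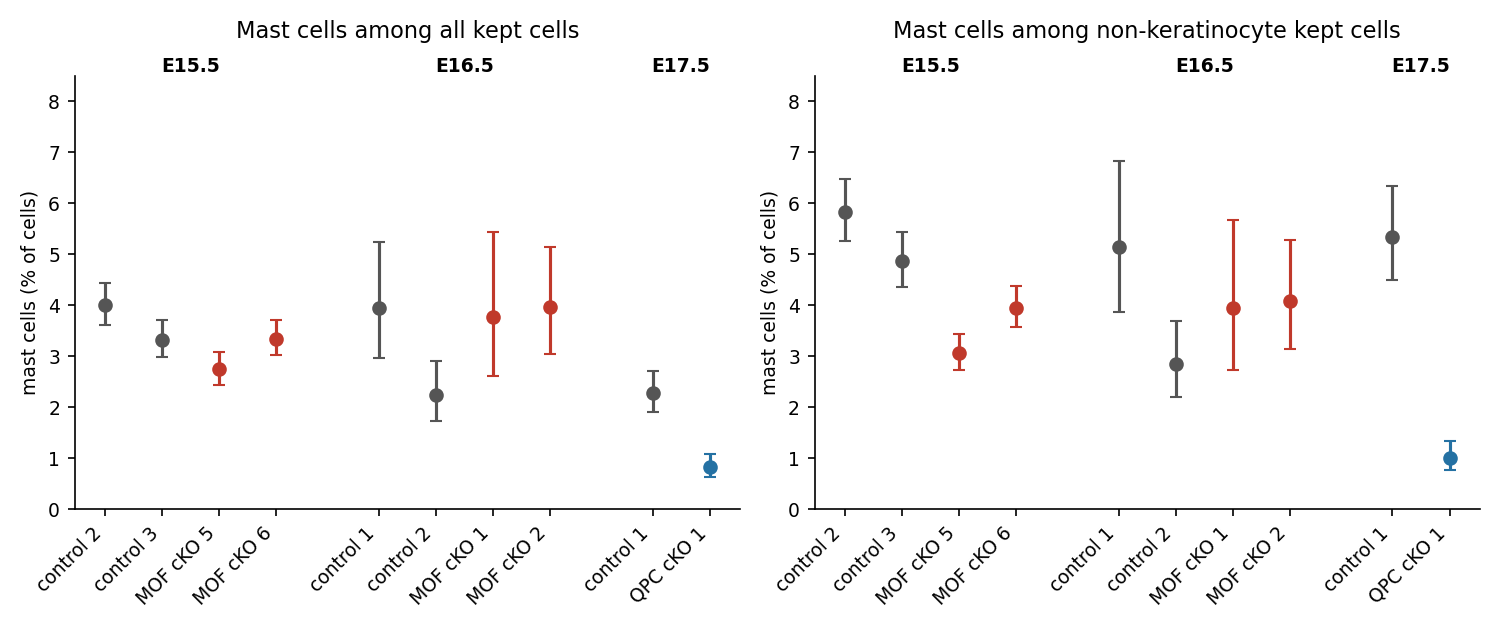
Share of mast cells (y axis, %) in each of the 10 libraries by stage and genotype (x axis), with 95% Wilson intervals as bars. The left panel is set against all kept cells, the right panel against kept cells with Krt5 and Krt14 under 10 UMIs. On the left, control and MOF cKO libraries overlap at E15.5 and E16.5. On the right they overlap at E16.5, while the E15.5 controls, at 5.83% and 4.87%, lie above MOF cKO, at 3.06% and 3.95%. The E17.5 QPC cKO library is the lowest in both panels, at 0.817% and 1.01%.

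Maturation was read from control mast cells of E17.5 against those of E15.5 (122 cells of 1 library against 336 and 303 cells of 2). Counts were summed per library and fitted with edgeR over all 10 libraries, so that the single E17.5 control is assumed to vary like the other groups, its own spread was not measured, and changes are log2 fold changes with their standard errors. Of 10338 genes tested, 30.6% passed an adjusted p of 0.05, 16.8% higher and 13.8% lower at E17.5, and the median over all genes was -0.03. In other kept cells of the same libraries, 15.8% of these genes moved at least 2-fold the same way and 84% moved less than 2-fold. The calls in mast cells asked for no fold change, so these shares do not tell how many changes were particular to mast cells.

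The protease genes that chose the cells are given as a description only. Mcpt4 (chr14:56059629-56062313) was at 611 and 464 CPM in the E15.5 controls, 405 and 273 CPM in E15.5 MOF cKO, 555 and 39.2 CPM and 245 and 438 CPM in the E16.5 control and MOF cKO libraries, 8745 CPM in the E17.5 control and 2367 CPM in QPC cKO. Both E17.5 libraries lay above all 8 younger ones. Tpsb2 (chr17:25366305-25369098) was at 4124 and 3411 CPM, 2869 and 3403 CPM, 9634 and 8511 CPM, 4734 and 8723 CPM, 16399 CPM and 7133 CPM in the same order of groups, with only the E17.5 control outside the range of the rest. Cma1 (chr14:55941451-55944675) was at 19221 and 19315 CPM in the E15.5 controls and reached 48666 and 31565 CPM in the E16.5 controls and 41404 CPM in the E17.5 control. Cpa3 (chr3:20215620-20242181) was at 17427 and 16765 CPM in the E15.5 controls, 15975 and 13106 CPM in the E16.5 controls and 34214 CPM in the E17.5 control. In cells picked instead by at least 3 of Kit, Fcer1a, Ms4a2, Hdc, Gata2 and Slc18a2, the 4 proteases together took 3.93% and 3.73% of UMIs in the E15.5 controls, 2.92% and 3.30% in E15.5 MOF cKO, 6.58% and 5.06% in the E16.5 controls, 2.95% and 4.72% in E16.5 MOF cKO, 9.74% in the E17.5 control and 5.85% in QPC cKO. The 4 E16.5 libraries averaged 4.83% against 3.47% for the 4 E15.5 libraries and overlapped them (difference 1.36 percentage points, exact permutation of 4 against 4, p = 0.114). With 4 of the 6 genes required the stages differed by 1.35 percentage points (exact permutation p = 0.0286, which is the lowest that 4 against 4 allows).

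**Figure D2:**
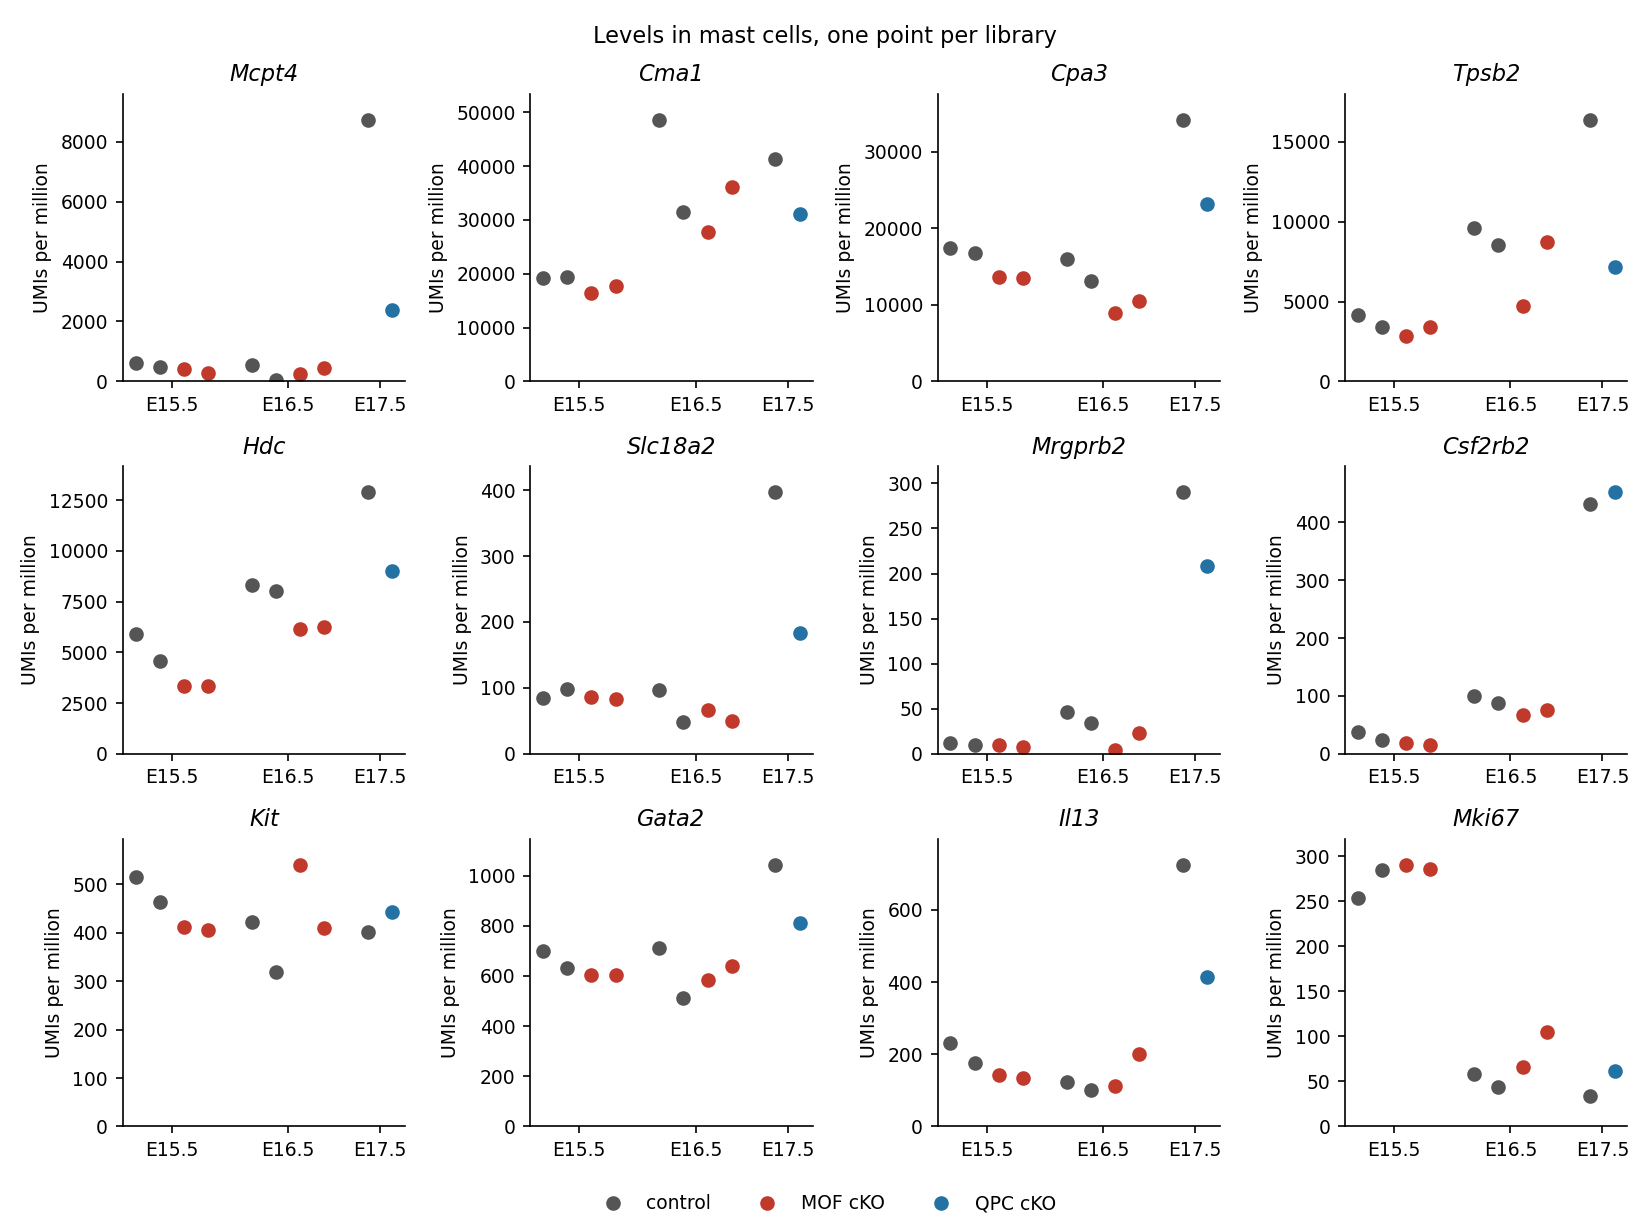
Summed expression in mast cells (y axis of each panel, CPM) of 12 genes in each library by stage and genotype (x axis), 1 point per library. Mcpt4, Hdc, Slc18a2, Mrgprb2 and Csf2rb2 are higher in the E17.5 control than in every E15.5 library, and Mki67 is lower.

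Mcpt4 was uneven from cell to cell. At E15.5 it had no UMI in 73.8% to 77.7% of mast cells per library, and the 7.02% to 10.6% of cells with at least 10 UMIs held 91.6% to 97.4% of all Mcpt4 UMIs. At E17.5 cells with at least 10 Mcpt4 UMIs were 40.2% of the control and 20% of the QPC cKO mast cells, and cells without any were 32.8% and 44%. Within the E17.5 control, the cells with at least 10 Mcpt4 UMIs summed to 23454 CPM of Tpsb2 against 10699 CPM in its other mast cells, to 418 against 187 CPM of Mrgprb2, and to 297 against 1049 CPM of G2/M genes. In that library the cells rich in Mcpt4 were also richer in Tpsb2 and Mrgprb2 and poorer in mitotic genes. In the E15.5 controls the same split gave Tpsb2 at 6128 against 3919 and 4626 against 3277 CPM, but G2/M genes at 2881 against 2580 and 2746 against 2634 CPM, higher in the cells rich in Mcpt4, and in E15.5 MOF cKO G2/M genes were at 1918 against 3119 and 2657 against 2918 CPM. In the QPC cKO library, where only 10 cells had that many, Tpsb2 was at 6505 against 7293 CPM and G2/M genes at 1971 against 1315 CPM. These splits use 1 of the rule genes and have no replicate at E17.5, so they carry no test.

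Among the other granule proteases, 4 of 10 tested were higher at E17.5 and 1 was lower, beside 16.8% and 13.8% of all genes. Ctsg, cathepsin G, was at 20.3 and 17.9 CPM in the E15.5 controls, 34.9 and 31.9 CPM in the E16.5 controls, 176 CPM in the E17.5 control and 166 CPM in QPC cKO, and rose by 3.29 ± 0.35 on the log2 scale (edgeR adjusted p = 2.27e-05). Gzmb, the granule protease granzyme B, rose by 2.50 ± 0.39 (edgeR adjusted p = 0.000436) from 17.4 and 10.3 to 73.2 CPM, and the lysosomal proteases Ctsd and Ctsl rose by 1.43 ± 0.26 and 1.41 ± 0.25. Mcpt2, a protease of mucosal mast cells, was the one called lower (-1.07 ± 0.36), a call lost without E15.5 control replicate 2. In DESeq2 neither Mcpt2 nor Gzmb was called. Tpsab1, the tryptase most like Tpsb2, was high in 1 library of each genotype at E15.5, at 636 and 51.1 CPM in the E15.5 controls and 496 and 49.2 CPM in MOF cKO, and Tpsg1 was at 238 and 459.5 and 218 and 428 CPM in the same libraries. Reads of the tryptase copies, and of Csf2rb and Csf2rb2, Hspa1a and Hspa1b and the globin copies, can be split between near-identical genes, so their single values are uncertain.

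Genes for what the granule stores were called higher more often than lower. Of 20 genes for heparin synthesis, amines and granule storage, all tested, 12 were higher at E17.5 and 1 was lower, with a median of 0.68 beside -0.03 over all genes. Hdc was at 5892 and 4581 CPM in the E15.5 controls, 8327 and 7999 CPM in the E16.5 controls, 12888 CPM in the E17.5 control and 9018 CPM in QPC cKO, and rose by 1.40 ± 0.19 (edgeR adjusted p = 0.000145). Slc18a2, the transporter that loads histamine and serotonin into granules, was at 84.9 and 99.1 CPM in the E15.5 controls and 397 CPM in the E17.5 control and rose by 2.20 ± 0.19 (edgeR adjusted p = 4.41e-06). For both genes the E17.5 control was above every E15.5 library. Hs3st1, a heparan sulfotransferase, rose by 1.98 ± 0.23, Srgn by 0.84 ± 0.20, and the granule membrane proteins Lamp1 and Lamp2 by 1.09 ± 0.17 and 1.13 ± 0.15. Ndst2, the sulfotransferase that starts heparin modification, fell by 0.74 ± 0.21, and its call was lost whichever E15.5 control was left out. Without E15.5 control replicate 3 the higher calls of the list were 7 in place of 12.

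Receptors were called in one direction only. Of 20 tested of 26 listed, 15 were higher and 0 lower, with a median of 1.37. Mrgprb2, the receptor for basic secretagogues that is particular to connective-tissue mast cells, was at 11.7 and 9.60 CPM in the E15.5 controls, 9.80 and 7.25 CPM in E15.5 MOF cKO, 46.5 and 34.3 CPM in the E16.5 controls, 4.16 and 23.6 CPM in E16.5 MOF cKO, 290.1 CPM in the E17.5 control and 208 CPM in QPC cKO. Both E17.5 libraries were above all others, and the rise was 4.86 ± 0.21 (edgeR adjusted p = 7.6e-08). Its relative Mrgprb1 rose by 2.31 ± 0.37. Csf2rb2, the receptor chain for IL-3, was at 37.4 and 23.7 CPM in the E15.5 controls and 431 CPM in the E17.5 control (log2 fold change 3.92 ± 0.21, edgeR adjusted p = 1.35e-07), and Csf2rb, the chain shared by the IL-3, IL-5 and GM-CSF receptors, rose by 2.02 ± 0.21. Of the IgE receptor, Ms4a2 and Fcer1g, the beta and gamma chains, rose by 0.71 ± 0.21 and 0.71 ± 0.20, and Fcer1a rose by 4.35 ± 0.75 but from 0.370 and 1.27 CPM to only 16.49 CPM. The calls of Ms4a2 and Fcer1g were lost whichever E15.5 control was left out. Il1rl1, the receptor for IL-33, rose by 1.25 ± 0.25 and Cd200r3, an activating receptor, by 2.54 ± 0.19. Kit, with 515 and 464 CPM in the E15.5 controls and 402 CPM in the E17.5 control, did not pass (-0.19 ± 0.22, edgeR adjusted p = 0.555).

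Signalling genes below these receptors had calls in that direction alone, with 14 of 22 tested higher, 0 lower and a median of 0.94. The kinases Lyn and Syk, which act first below the IgE receptor, rose by 1.33 ± 0.17 and 1.19 ± 0.25, and the adaptors Lat and Lat2 by 1.36 ± 0.18 and 1.64 ± 0.23. Of the machinery for granule release, 7 of 15 tested were higher and 0 lower, among them Stx11 (3.45 ± 0.18), a syntaxin, Snap23 (1.03 ± 0.15), a SNARE of mast cell granules, and Rab27b (0.97 ± 0.21), a small GTPase that docks granules. Of the enzymes for lipid mediators, 3 of 8 were higher and 1 lower, beside 16.8% and 13.8% of all genes. Hpgds, the prostaglandin D2 synthase of mast cells, rose by 1.27 ± 0.24 and Alox5ap, which feeds leukotriene synthesis, by 1.13 ± 0.22.

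Transcription factors of the lineage split. Of 20 tested, 5 were higher and 6 lower, beside 16.8% and 13.8% of all genes, with a median of -0.34. Gata2, which keeps mast cell genes on, was at 700.4 and 632 CPM in the E15.5 controls and 1042 CPM in the E17.5 control. It rose by 0.74 ± 0.20 (edgeR adjusted p = 0.0121). Its relative Gata1 was at 34 and 30.4 CPM and 11.8 CPM in the same controls and fell by 1.35 ± 0.28 (edgeR adjusted p = 0.0034). Mitf, the factor that acts below Kit in mast cells and melanocytes, fell by 0.73 ± 0.23. Runx3, Spi1 and Bhlhe40 rose by 1.40 ± 0.22, 1.21 ± 0.19 and 1.34 ± 0.44. Among 7 progenitor genes tested, 2 were higher and 2 lower, too few to set apart from those shares. Itga4, the integrin chain by which progenitors leave the blood, fell by 1.28 ± 0.21 and Myb by 0.71 ± 0.24. The calls of Mitf and Myb were lost whichever E15.5 control was left out and in DESeq2, and without E15.5 control replicate 3 the factors called higher were 3 in place of 5, with Gata2 and Bhlhe40 lost. Of the adhesion and homing genes, 9 of 12 tested were higher and 0 lower, with Itga2, a collagen receptor chain, at 2.77 ± 0.22, S1pr1, a receptor for sphingosine-1-phosphate, at 4.29 ± 0.42, and Cd44, the hyaluronan receptor, at 1.86 ± 0.17.

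Among the lists of mast cell genes, cytokines and chemokines had the highest median. Of 20 tested, 15 were higher and 0 lower, with a median of 2.15. Csf2, the gene of GM-CSF, was at 10.7 and 5.98 CPM in the E15.5 controls, 0 and 2.45 CPM in the E16.5 controls, 631 CPM in the E17.5 control and 295 CPM in QPC cKO (log2 fold change 6.33 ± 0.26, edgeR adjusted p = 7.6e-08). Ccl2, which draws monocytes, went from 6.84 and 1.81 to 301 CPM and Ccl7, of the same cluster, from 0.370 and 5.07 to 713 CPM. Both were also higher in the other kept cells of the E17.5 control, by 5.20 and 5.15 on the log2 scale. Il13, a type 2 cytokine, rose by 1.93 ± 0.22, Il4 by 1.85 ± 0.27, Areg, a ligand of the EGF receptor, by 3.61 ± 0.39 and Csf1 by 2.46 ± 0.28, while Tnf, which mast cells store in their granules, did not pass (-0.15 ± 0.21, edgeR adjusted p = 0.62). Immediate early and heat shock genes, which dissociation of a tissue can induce, were 7 higher and 8 lower of 22. Without E15.5 control replicate 3 they were 1 higher and 8 lower, and with both genotypes of a stage averaged 9 higher and 2 lower.

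**Figure D3:**
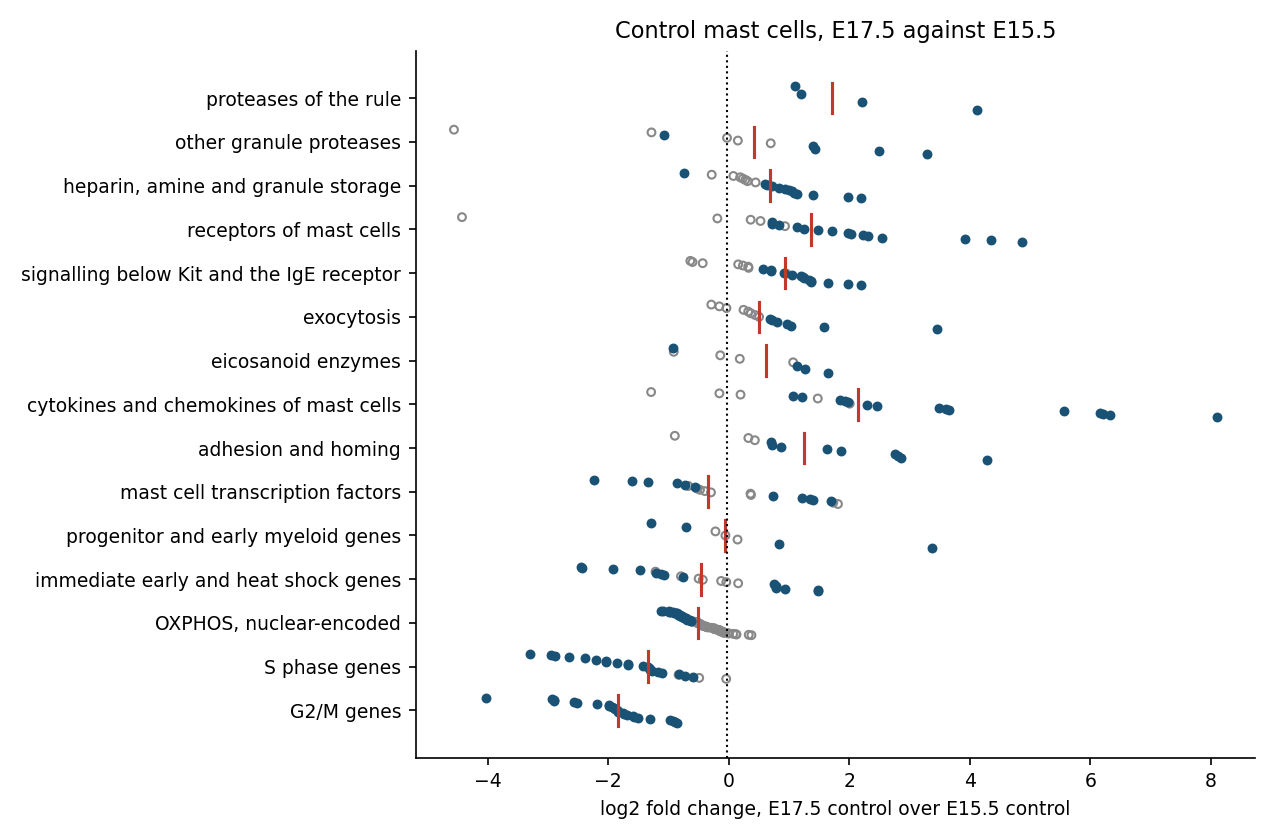
Change of each tested gene between control mast cells of E17.5 and E15.5 (x axis, log2 fold change from edgeR) by gene list (y axis). Filled points passed an adjusted p of 0.05, open points did not, red bars mark list medians and the dotted line marks the median of all genes. Cytokines and receptors lie to the right, and S phase and G2/M genes to the left.

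The cell cycle moved the other way. All 26 G2/M genes were lower at E17.5 and so were 22 of 25 S phase genes, with medians of -1.84 and -1.34, and none was higher. Mki67, which marks cycling cells, was at 254 and 284 CPM in the E15.5 controls, 290.2 and 286 CPM in E15.5 MOF cKO, 58.2 and 44.1 CPM in the E16.5 controls and 33.8 CPM in the E17.5 control (log2 fold change -2.90 ± 0.23, edgeR adjusted p = 2.42e-06). Plk1, a mitotic kinase, fell by 4.03 ± 0.51 and Top2a by 2.19 ± 0.21. With every cell thinned to 5000 UMIs, the share of mast cells with at least 3 UMIs of the G2/M genes was 59.9% and 65% in the E15.5 controls, of 334 and 300 cells deep enough, and 25.8% in the E17.5 control, of 120. Without thinning the shares were 88.1% and 91.1% in the E15.5 controls, and the E17.5 share was 72.1%. Of the 74 nuclear genes of the respiratory chain, 0 were higher and 25 lower (median -0.52). That count was 15 without E15.5 control replicate 2, 9 without replicate 3 and 49 without the E16.5 libraries. Uqcrq, the gene targeted in QPC cKO and not part of that list, was called lower (-1.02 ± 0.32), a call lost without E15.5 control replicate 3 and in DESeq2, and was at -1.25 on the log2 scale in the other kept cells of the same control libraries.

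RNA of other cell types moved with stage. Erythroid genes summed to as much as 22730 CPM in an E15.5 library and 1.12 CPM at the least, in QPC cKO, and the beta globin gene Hbb-bs was at 7014 and 5033 CPM in the E15.5 control mast cells and 1.69 CPM at E17.5, with a fall of 6.65 on the log2 scale in the other kept cells. Of 10 keratinocyte markers tested, 4 were higher at E17.5 and of 5 melanocyte markers 4 were higher. The list of T and innate lymphoid markers was split, 2 higher and 1 lower of 6 tested. Cd3e, a chain of the T cell receptor complex, had no UMI in the mast cells of any E15.5 library and was at 241 CPM in the E17.5 control and 177 CPM in QPC cKO, against 11.9 and 2.67 CPM in the other kept cells of those libraries. Cd3g, its partner, was at 3.81 and 8.95 CPM and Trdc had no UMI in the 2 E17.5 libraries, so the defining partners of Cd3e were at or near 0. Schwann markers, 5 tested, had a median of 2.29 on the log2 scale and reached 61.35% of their level in the other kept cells of the E17.5 control. Macrophage and pericyte markers went the other way, with medians of -2.18 and -1.34. The part of other cells in the stage differences was not tested. Il7r, a cytokine receptor on the same list, rose by 4.25 ± 0.30. Other genes with the largest rises were Ctsj, a cathepsin, with 0 and 0 CPM in the E15.5 controls, 58.2 and 27 CPM in the E16.5 controls and 119.7 CPM in the E17.5 control, Tnfrsf9, a receptor of activated immune cells, at 5.81 ± 0.40, and Cd14 at 5.85 ± 0.41.

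The E16.5 controls were compared with the E15.5 controls in the same fit, with only 45 and 55 mast cells of lower depth. Both comparisons use the E15.5 controls, and the E16.5 libraries list 27998 genes against 32285 in the others, so that only genes of both lists were tested. Of 10338 genes tested, 13.8% passed, 5.24% higher and 8.58% lower, with a median of -0.13 over all genes. DESeq2 called a similar number, 1449, but 55.3% of its calls were higher against 37.9% in edgeR. In other kept cells, 40.6% of the edgeR calls moved at least 2-fold the same way, a limit that the calls themselves did not have. Mrgprb2 rose by 1.97 ± 0.39, Csf2rb2 by 1.70 ± 0.27, Cd200r3 by 1.48 ± 0.20 and Hdc by 0.71 ± 0.16 (edgeR adjusted p from 0.000414 for Cd200r3 to 0.0106 for Hdc). G2/M genes were lower for 14 of 26 and higher for 0, with Mki67 at -2.35 ± 0.23, and without E16.5 control replicate 2 the count was 8, without E16.5 control replicate 1 or E15.5 control replicate 2 it was 9. The thinned G2/M share, at 57.1% and 66.7% in the E16.5 controls, overlapped the 59.9% and 65% of the E15.5 controls, although 24 and 19 E16.5 cells were too shallow to count. The mean UMIs of the list per thinned cell were 4.48 and 5.44 against 10.9 and 11.4. Of the receptors 5 were higher and 0 lower of 20, of the other proteases 0 and 0 of 10, and of the cytokines 3 and 1 of 20. Hes1, a target of Notch, was higher at E16.5 (2.40 ± 0.22) and lower at E17.5 (-1.60 ± 0.29) than at E15.5. The largest shifts included Trf, the gene of transferrin, at 10.7 and 8.88 CPM in the E15.5 controls and 1140.2 and 466 CPM in the E16.5 controls, and the immediate early gene Egr3, at 288 and 239.8 CPM and at 0 in the same libraries.

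Few genes differed between MOF cKO and control mast cells at E15.5. Of 10839 genes tested, 0.295% passed, 0.0185% higher and 0.277% lower, which is 2 and 30 genes. Immediate early and heat shock genes, which are induced within minutes of stress, were the only list with more than 1 call. Of their 22 genes, 3 were lower and none higher, and only 2 had a log2 fold change above 0. Hspa1a, an inducible heat shock chaperone, was at 41.1 and 28.3 CPM in the controls and 5.73 and 5.89 CPM in MOF cKO (log2 fold change -2.65 ± 0.22, edgeR adjusted p = 0.00584), and its copy Hspa1b fell by 3.06 ± 0.27. Atf3, a stress-induced transcription factor, was at 38.8 and 36.6 CPM in the controls and 15.4 and 16.8 CPM in MOF cKO (-1.30 ± 0.13) and lost its call without predicted doublets. Atf3 was also lower in the other kept cells, by 1.70 on the log2 scale, and Hspa1a by 0.49. Jun and Ier3 missed the threshold, each with an edgeR adjusted p of 0.0529.

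Further genes were lower in E15.5 MOF cKO mast cells. Of the 30 genes called lower, 18 were also lower in the other kept cells, where 47.5% of all tested genes were lower. Calca, the gene of the peptide CGRP and calcitonin, was at 258 and 107 CPM in the controls and 26.1 and 18 CPM in MOF cKO (-3.13 ± 0.38, edgeR adjusted p = 0.0199), with -0.06 in the other kept cells. Ctla2a, an inhibitor of cysteine proteases, was at 294 and 105 CPM and 22.8 and 24.3 CPM (-3.15 ± 0.41). Tnfaip3, a brake on NF-kappaB signalling, was at 496 and 357 CPM and 194 and 245 CPM (-1.03 ± 0.15, edgeR adjusted p = 0.0393). Both MOF cKO libraries were below both controls for all 30 genes called lower, and in the other kept cells this held for 14 of them. The share of all tested genes that separate in this way is not given, and a call with 2 libraries per group favours it. The choice of these 3 genes required it, so it adds no support. Dusp5, a phosphatase of ERK, Slc31a2, a copper transporter, and Gadd45a, induced by DNA damage, fell by 1.03 ± 0.12, 1.29 ± 0.16 and 0.92 ± 0.13. Krtdap, a keratinocyte gene, fell as well (-1.91 ± 0.25), and all 10 keratinocyte markers tested had negative values, with a median of -1.95. Of markers of other cells none was called. The values above 0 were 10 of 10 fibroblast markers tested (median 0.44), 5 of 5 of melanocytes (1.62), 5 of 5 of Schwann cells (0.79), 4 of 4 of endothelium (2.15) and 6 of 6 of red cells (0.42), but 1 of 6 of macrophages (-0.22), 1 of 5 of T and innate lymphoid cells (-0.75), 0 of 2 of pericytes (-0.16) and 0 of 2 of megakaryocytes (-1.81). The part of RNA from other cells in these differences was not tested.

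The calls at E15.5 were few and moved with the setting. Scaling by library size alone left 6 calls, 1 higher and 5 lower, DESeq2 made 105, and the count ran from 18 without MOF cKO replicate 5, through 50 without MOF cKO replicate 6 and 198 without control replicate 2, to 425 without control replicate 3. Hspa1a, Hspa1b and Gm20186 passed in all of 11 alternatives. Without MOF cKO replicate 5, Ctla2a, Tnfaip3, Dusp5, Slc31a2, Gadd45a and Krtdap lost their calls, and Gadd45a and Krtdap did so without replicate 6 as well. The embryonic globin Hbb-y, at 14.6 and 7.43 CPM in the controls and 213 and 553 CPM in MOF cKO, and Fabp4, a fatty acid binding protein, at 4.25 and 1.99 and 20.5 and 36.9 CPM, were the 2 higher genes, and Fabp4 was named after its values were seen. Neither passed without predicted doublets, where Hbb-y reversed to -1.70. None of the other proteases, receptors, transcription factors, cytokines or respiratory chain genes passed. Hdc came near, at -0.73 ± 0.12 (edgeR adjusted p = 0.052), with both MOF cKO libraries at 3322 and 3337 CPM below both controls at 5892 and 4581 CPM.

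At E16.5 none of 3487 genes tested passed (0.0%), with 223 at an unadjusted p under 0.05, and DESeq2 called 1. In simulated data of this design a 4-fold change was recovered for 88.1% of changed genes and a 2-fold change for 0.538%, so only large changes were detectable. Leaving out control replicate 1 gave 46 calls. Of the 30 genes lower at E15.5, 23 were tested at E16.5 and 11 had negative values there, against 47.5% of all genes tested. The MOF effect was also compared between the stages as an interaction, and no gene passed, with 878 at an unadjusted p under 0.05.

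The share of mast cells with UMIs of G2/M genes was higher in MOF cKO at E15.5 and lower at E16.5. At E15.5 the thinned G2/M share was 75% and 73.6% for MOF cKO, above the controls at 59.9% and 65%, with means that differed by 11.9 percentage points. At E16.5 it was 45.5% and 47.2% for MOF cKO, of 22 and 36 cells, below the controls at 57.1% and 66.7%, of 21 and 36 cells, and the means differed by -15.6 percentage points. The groups did not overlap at either stage, and each exact permutation p was 0.333, the smallest possible. Over both stages the difference was -1.85 percentage points (exact permutation p = 0.833). Without thinning the differences were 5.54 and -0.724 percentage points. S phase genes gave 83% and 87.4% for E15.5 MOF cKO against 69.8% and 71% for its controls, and 36.4% and 50% against 61.9% and 58.3% at E16.5. At E16.5 the amount of G2/M RNA did not follow the share: the thinned cells held on average 5.82 and 5.28 UMIs of these genes for MOF cKO and 4.48 and 5.44 for the controls, and in the summed counts 8 of 13 tested genes had values above 0, with a median of 0.30. Of 12 tested S phase genes 1 was above 0 there, with a median of -0.81, and none of either list passed. In the summed counts no S phase or G2/M gene passed at E15.5, although all 25 S phase genes had values above 0, with a median of 0.20.

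**Figure D4:**
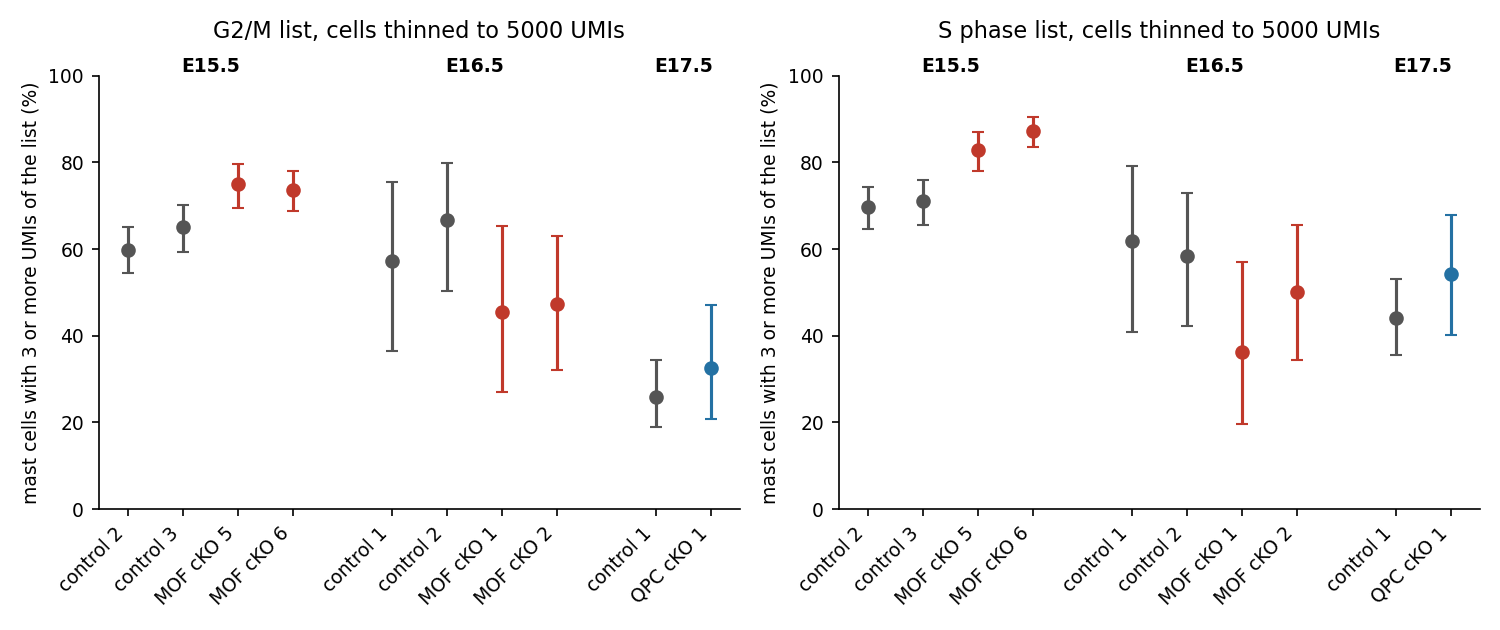
Share of mast cells with at least 3 UMIs of the G2/M list and of the S phase list (y axis, %) per library by stage and genotype (x axis), after thinning each cell to 5000 UMIs, with 95% Wilson intervals as bars. Cells under 5000 UMIs are left out. MOF cKO libraries lie above the controls at E15.5 and below them at E16.5 in both lists.

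The QPC cKO mast cells of E17.5 differed from the control in cytokine and stress genes, in 1 library each. Of 4812 genes that reached 50 UMIs in one of both libraries, 5.15% were past the fold, meaning at least 2-fold apart with exact Poisson intervals that do not overlap, 2.43% higher and 2.72% lower in QPC cKO. The control library is the one used in the stage comparison. The values are log2 ratios of CPM with 1 added, and no test between genotypes was made. Of the genes that chose the cells, given as a description only, Mcpt4 was at 2367 CPM (95% interval 2267 to 2469.6) against 8745 CPM (8626 to 8865) and Tpsb2 at 7133 CPM against 16399 CPM, while Cma1 and Cpa3 had log2 ratios of -0.41 and -0.56. Of 8 other proteases 3 were lower, with Prss34, a protease mast cells share with basophils, at 4.48 against 169 CPM. Of 17 storage genes 2 were lower: Slc18a2, at 184 against 397 CPM, and Tph1, the enzyme of serotonin synthesis, at 28 against 80.4 CPM. None of 16 receptors was past the fold, among them Kit (0.14), Mrgprb2 (-0.48) and Csf2rb2 (0.07).

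Of 17 cytokines and chemokines, 8 were lower in QPC cKO and 0 higher, with a median of -0.81 beside 0.05 over all genes. Ccl7 was at 39.2 against 713 CPM, Ccl2 at 29.1 against 301 CPM, Csf2 at 295 against 631 CPM and Areg at 7.83 against 109 CPM. Tnf and Il6 were not past the fold and lay on the other side, at 0.90 and 0.25. Immediate early and heat shock genes were higher for 11 of 22 and lower for 1. Fos was at 2697 against 512 CPM, Jun at 2183 against 548 CPM, and Hspa1a at 77.2 against 5.92 CPM, and in the other kept cells the log2 ratios of these genes were 0.43, 0.37 and 0.12. Of 13 G2/M genes 6 were higher and all had positive ratios (median 0.99). The thinned G2/M share was 32.6% of 46 QPC cKO cells against 25.8% of 120 control cells, and without thinning 68% against 72.1%. With at least 2 UMIs asked for, the thinned share was 63% (95% Wilson interval 48.6% to 75.5%) against 37.5% (29.4% to 46.4%), so the size of this gap depended on the cut. None of the 74 nuclear respiratory chain genes was past the fold (median 0.16).

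Markers of other cells were highest in the QPC cKO mast cells for several types, and their part in these ratios was not tested. Schwann markers summed to 161 CPM there, against 47.8 CPM in the control mast cells. Fibroblast markers summed to 7446 CPM there, against 731 CPM in the lowest library, and 5 of 6 measured ones were higher than in the control, with Col1a1 at 2265 against 297 CPM in mast cells and at 7456 against 10984 CPM in the other kept cells. Melanocyte markers summed to 1061 CPM, and all 4 measured ones were higher, led by Dct, the dopachrome tautomerase of pigment synthesis, at 529 against 31.7 CPM in mast cells and 794 against 118 CPM in the other cells. Tyr, Mlana and Pmel, of the same cells, were among the 10 largest increases, as was Klf2 (463 against 47.8 CPM). Mitf, which both cell types use, was the one gene past the fold on the list of mast cell transcription factors (1.51). The largest decreases held muscle genes, with Acta2 at 1.12 against 131 CPM, and the cytokine gene Il1b, at 0 against 57.9 CPM. Without the limits on genes and mitochondrial UMIs, a setting with those shared barcodes, Acta2, Tagln and Tpsab1 turned to ratios above 0.

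**Figure D5:**
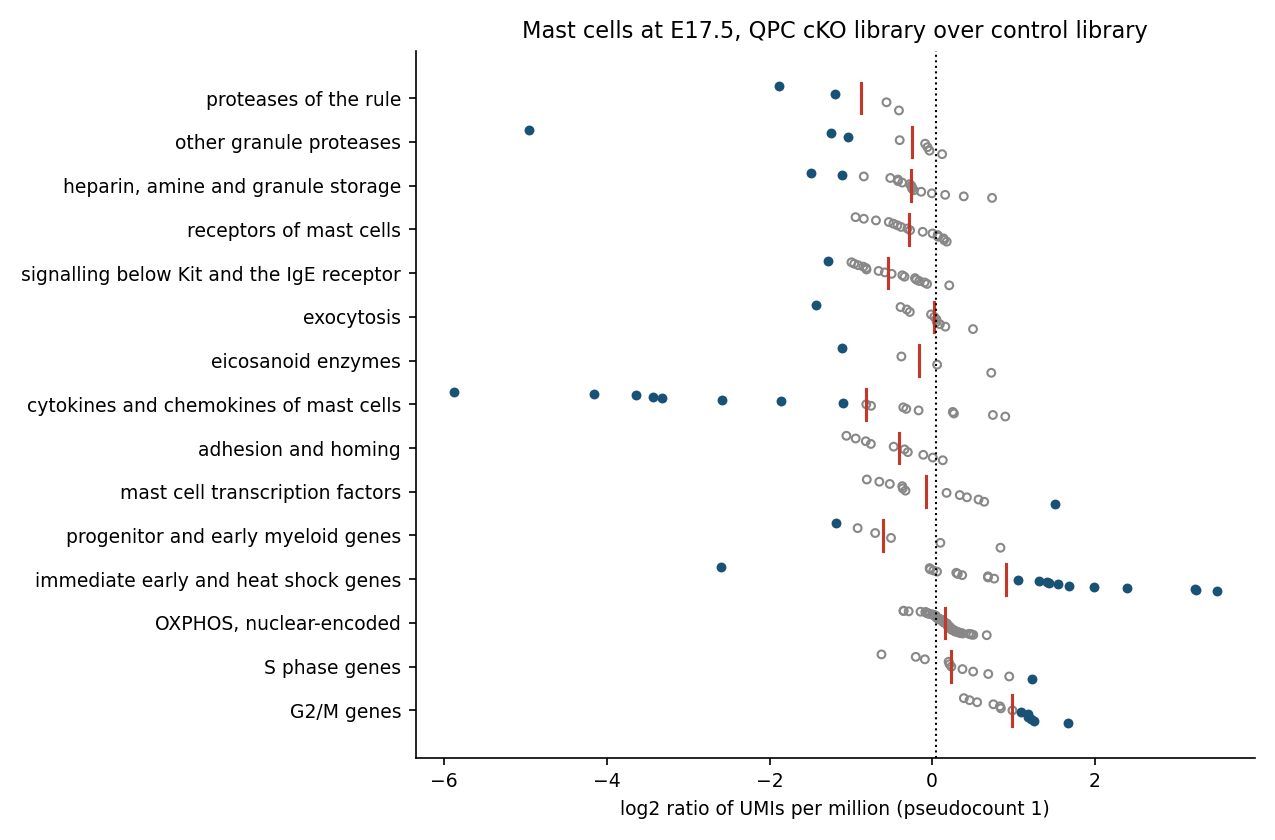
Log2 ratio of CPM between QPC cKO and control mast cells of E17.5 (x axis) for each gene that reached 50 UMIs in one of both, by gene list (y axis), 1 library per genotype. Filled points are past the fold and open points are not. Cytokines lie to the left, and G2/M and immediate early genes to the right.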

How the data were processed

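The deposited files hold counts of UMIs per gene and cell barcode of called cells, which the authors made with Cell Ranger on mm10 (version 6.1.2 in the E15.5 and E17.5 file headers, with 1.3.1 and 6.1.2 named for E16.5 in the submitters' processing notes without a role), without normalization. Kept cells followed the limits the authors gave for their own analysis. The mast cell rule, the gene lists, the tests and the named genes were chosen with earlier results of these data known. Counts were summed over mast cells per library and tested with the quasi-likelihood test of edgeR 4.0.16 (filterByExpr, TMM, Benjamini-Hochberg) in R 4.3.3, with DESeq2 1.42.0 as an alternative. Genes named beyond the lists were up to 10 per direction and test with the largest fold changes, groups that did not overlap and a mean of at least 50 CPM, leaving out rule, keratin and sex-linked genes. Shares were compared by exact permutation of libraries, with 95% Wilson intervals, and E17.5 libraries by ratio with exact Poisson intervals, which cover counting error only. The labels do not name separate litters or embryos, so p-values measure the spread between these libraries, which may be technical. Doublets were predicted with scanpy 1.11.5 (Scrublet), which marked 0.163% to 0.559% of kept cells per library at E16.5 and E17.5, too few to show that it worked there. In simulated counts of the E17.5 against E15.5 design, 4-fold changes were recovered for 81.3% and 2-fold changes for 38.3% of changed genes. Beside 161 and 74 right calls, these runs made 10 and 19 false ones. With 4-fold and 2-fold changes, false calls were 37 and 12 beside 187 and 131 right ones for E15.5 MOF cKO. They were 17 and 2 beside 133 and 31 for E16.5 against E15.5. For E16.5 MOF cKO they were 5 and 1 beside 156 and 1. The adjusted p threshold thus did not hold false calls to its nominal share in most of these runs. Promoter windows came from RefSeq (GRCm38.p6) and gene positions from GENCODE (GRCm38). At E16.5 both groups carry replicate numbers 1 and 2, and deviations of same-numbered libraries had a correlation of -0.12 over 3487 genes. With 2 libraries per group both numbers give this same value, so it cannot settle whether they are pairs. The numbers were not used as pairs in the main tests.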

Additional observations from a re-analysis of the deposited data

Results flagged for a closer look

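The effect of MOF cKO on the share of mast cells with at least 3 UMIs of G2/M genes was 11.9 percentage points at E15.5 and -15.6 percentage points at E16.5, with every library of one stage moving one way and every library of the other the opposite way, and the difference between the stages was not tested. The E16.5 shares rest on the 21 to 36 cells per library with at least 5000 UMIs, which left out 5 to 24 cells per library. Without thinning the E16.5 difference was -0.724 percentage points. The amount of G2/M RNA at E16.5 was not lower in MOF cKO, at 0.116% and 0.106% of thinned UMIs against 0.0895% and 0.109% in the controls, and in the summed counts the median of the list was 0.30 on the log2 scale. Of the genes called lower in MOF cKO mast cells at E15.5, 23 were tested at E16.5, and 3 of these moved the opposite way in every E16.5 library. The share of all tested genes whose E16.5 libraries separate in this way was not computed, so the 3 genes are a description only. Dusp5, a phosphatase of ERK, was at -1.03 on the log2 scale at E15.5 and at 1.06 at E16.5 (difference 2.05, edgeR adjusted p = 0.0821). Nfkbiz, an inducible regulator of NF-kappaB targets, was at -0.69 and 1.01 (difference 1.67, edgeR adjusted p = 0.212), and the histone gene Hist1h2bc at -0.78 and 0.40 (difference 1.15, edgeR adjusted p = 0.287). Nfkbiz and Hist1h2bc are named because they met this condition. None of these differences passed, and at E16.5 none of the genes passed on its own.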

How the results depend on the processing

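Depth and library number set the limits: E16.5 had few cells of low depth, E17.5 had 1 library per genotype, and stage and chemistry cannot be told apart. Between the E15.5 and E17.5 controls sex of the embryos cannot be told apart from stage either, whereas the E16.5 controls differed from each other in Xist. The share of mast cells in MOF cKO against control was never past a test, and its sign turned at E16.5 (range -0.081 to 1.62 percentage points with 1 library left out, negative without control replicate 2) and over both stages (-0.917 among kept cells without the 2 keratins, -0.332 with mitochondrial UMIs under 5%). The E17.5 share ratio moved to 0.189 among cells without the keratins and 0.519 without the limits on cells. The cycling difference over both stages ran from -4.23 to 0.527 percentage points with 1 library left out and was 2.41 without thinning. In cells chosen without the rule genes, the E16.5 minus E15.5 difference of the rule genes was 1.35 percentage points with 4 of 6 genes required (exact permutation p = 0.0286), and the share of such cells with at least 20 UMIs of them differed by -4.64 percentage points, against the direction of the level. Counts of calls in E15.5 MOF cKO were 105 by DESeq2, 6 with library size alone and 18 to 425 with 1 library left out. At E16.5 they were 1 by DESeq2, 3 with library size alone, 28 without a filter on low counts and 0 to 46 with 1 library left out. For E16.5 against E15.5 they were 2835 with both genotypes averaged and 702 to 1059 with 1 library left out, the lowest without E16.5 control replicate 2. For E17.5 against E15.5 the count of 3164 ran from 2174 to 2500 with 1 library left out and was 4170 with genotypes averaged and 3842 without the E16.5 libraries. In QPC cKO 506 genes were past the fold with at least 20 UMIs and 544 without the limits on cells. The cause of these changes was not tested.

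The replicate block at E16.5 gave 0 calls, 191 genes at an unadjusted p under 0.05 and an exact permutation p of 1.0 for the share (0.769 percentage points, with -0.176 for number 1 and 1.71 for number 2). The crossed pairing, added after seeing the data, gave 2 calls. Control and MOF cKO share replicate numbers at E16.5 alone, so a block was tried only there. The paper names 2 pairs of samples with littermate controls at E15.5 too. The labels do not say which E15.5 libraries form a pair, and the E15.5 tests used no pairing.

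Single genes that reversed were Hbb-y without predicted doublets (-1.70), Mcpt8 at E16.5 without control replicate 2 (-0.37, up to 2.86 with another library left out), and, with genotypes averaged, Dusp5 (0.17) and Nfkbiz (0.17) at E16.5 and Dio2 (-0.85), Atf3 (-0.0695), Mitf (0.0172), Siglecf (-1.51), Zfp36 (0.22), Jun (0.0878), Actc1 (-1.21), Hspa1b (0.70) and Hspa1a (0.62) at E17.5, where the average takes in QPC cKO. Without the limits on cells, the QPC cKO ratios of Tpsab1 (0.0172), Tagln (0.36) and Acta2 (0.62) reversed. Shared barcodes, rule sums of 40 UMIs and library sizes without the rule genes left the counts of calls within 1.5 times in the comparisons of expression where they were run, which for QPC cKO was shared barcodes alone.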

Other observations

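Of 20 interferon and antigen presentation genes tested, 6 were higher and 1 lower in E17.5 than in E15.5 control mast cells, beside 16.8% and 13.8% of all genes, and DESeq2 called 4 higher and 0 lower. Among them was B2m, the light chain of class I molecules, at 249 and 207 CPM in the E15.5 controls, 756 and 1064 CPM in the E16.5 controls, 819.6 CPM in the E17.5 control and 558 CPM in QPC cKO (log2 fold change 1.94 ± 0.24, edgeR adjusted p = 8.15e-05). Of 74 nuclear genes of the respiratory chain, 7 were higher and 0 lower in E16.5 than in E15.5 control mast cells, where 5.24% and 8.58% of all genes were. The count of higher genes ran from 3 without E16.5 control replicate 2 to 26 without E16.5 control replicate 1. For E17.5 the list had 0 higher and 25 lower, and both comparisons share the E15.5 controls.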
